A study of Mus musculus with 6 samples.

Results

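The genes described here build and run the DNA replication fork. They are 46 genes, out of 22048 in the deposited table, chosen by name: the 6 subunits of the origin recognition complex, the loading factors Cdc6 and Cdt1, the MCM ring, the factors that activate it, the polymerases with their clamp and single-strand binding protein, the enzymes that finish Okazaki fragments, and 4 enzymes of deoxynucleotide supply. All 46 were found by symbol, and all 46 passed the filter on low read counts that kept 13952 genes.

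RNA-Seq was performed on hypothalamic neural stem/progenitor cells (NSC/NPCs) of C57BL/6 mice. The dams were 8 weeks old. Those of the high estradiol (HE) samples had been given estradiol valerate, a long-acting ester of estradiol, by gavage at 100 μg/kg/d from E5.5 to E11.5. The dams of the control (NC) samples had been given the corn oil solvent according to the protocol, although another label of these samples calls them untreated. Male fetuses were taken at E14.5, and hypothalamic cells were grown as neurospheres, which are floating clusters of dividing cells, in medium with EGF and bFGF at 10 ng/mL each. Each of the 3 HE and 3 NC samples held first-passage cells of 2 mice. The labels do not tie samples to litters or cultures, so the p-values measure only the spread between these samples. The gavage thus ended before the cells were isolated, and both groups grew in the same medium.

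Replication is licensed in G1, when the origin recognition complex, with Cdc6 and Cdt1, loads MCM rings onto DNA. In S phase, Cdc45 and the GINS complex turn the MCM ring into the active helicase, primase lays down primers, and polymerases held by the sliding clamp Pcna copy the strands. Many of these genes are transcribed in G1 and S phase through E2F factors, and in a progenitor culture their mRNAs are used as a sign of cycling cells.

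Between 16078675 and 19137059 reads per sample fell on genes, and a member had from 55 to 5780 reads in a sample. HE3 stood apart from the other libraries. Its mean distance to the rest of its group was 80.4 on the log2 scale over all tested genes. This distance was 58.2 and 60.9 for the other HE samples and 46.2 to 51.8 for the NC samples. The mean distance to the NC samples was 56.8 for HE1, 60.7 for HE2 and 102 for HE3. HE1 was thus nearer to the controls than to its own group, which includes HE3. HE3 also had the fewest reads, and its 10 most abundant genes took 6.90% of reads compared with 5.81% to 6.47% elsewhere. Results are therefore given with and without HE3. The label of neural stem cells was checked on 12 progenitor markers, all of which were detected. Sox2, a transcription factor of neural stem cells, was at 195 to 209 RPKM in NC and 97.3 to 176 RPKM in HE. RPKM is the reads per gene, divided by gene length and by the total of the sample. Nes, which encodes the intermediate filament Nestin, was at 154 to 247 RPKM over the 6 samples. Of 6 astrocyte markers, Gfap was at 624 to 754 RPKM in NC and 195 to 650 RPKM in HE. Aldh1l1 was at 553 to 698 RPKM in NC and 482 to 530 RPKM in HE, and the others were below Sox2. The check thus does not show a culture of stem cells alone.

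All 46 replication genes had a higher mean level in HE than in NC, where 43.8% of all tested genes did. The median log2 fold change of the 46 was 0.48, compared with -0.06 for all genes, and their range was 0.02 for Orc3 to 0.84 for Rfc4. None reached a log2 fold change of 1, and 22 reached 0.5. Fold changes are on log2(RPKM + 0.1), HE minus NC, and somewhat understate those of the lowest genes. With limma and Benjamini-Hochberg adjustment over all tested genes, 0 of the 46 passed an adjusted p of 0.05, as did 0.0% of all genes. The adjusted p-values of the members ran from 0.195 to 0.947, and limma's voom on the read counts also gave 0. The smallest adjusted p of any gene was 0.148. With sample weights in limma, 3 members passed: Rfc4 (adjusted p = 0.0348), Rpa1 (adjusted p = 0.0429) and Mcm4 (adjusted p = 0.0496), where 2.58% of all genes were higher at that level. The result for single members thus depended on how the libraries were weighted. Unadjusted, 22 of the 46 had a p under 0.05, each of them higher in HE, where 8.68% of all genes were higher at that level. No member was lower at that level, where 11.8% of all genes were.

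The samples differed in the size of the shift. Relative to the NC mean, the median log2 level of the 46 genes was 0.03, -0.17 and 0.13 for NC1, NC2 and NC3, and 0.25, 0.35 and 0.90 for HE1, HE2 and HE3. All 3 HE samples thus stood above the 3 controls, with HE3 far above the other HE samples and NC2 below the other controls. Summed over the 46 genes, the level was 653, 560 and 693 RPKM in NC1, NC2 and NC3, and 765, 821 and 1220 RPKM in HE1, HE2 and HE3. HE3 again stood highest and NC2 lowest. The same genes took 0.209% to 0.260% of the reads in NC and 0.286% to 0.461% in HE. HE3 was the highest sample for 43 members and for 24.5% of all genes, and NC2 was the lowest for 37 members and for 18.5% of all genes. HE1 was the highest for the remaining 3 members, which were Orc3, Orc4 and Orc5.

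**Figure D1:**
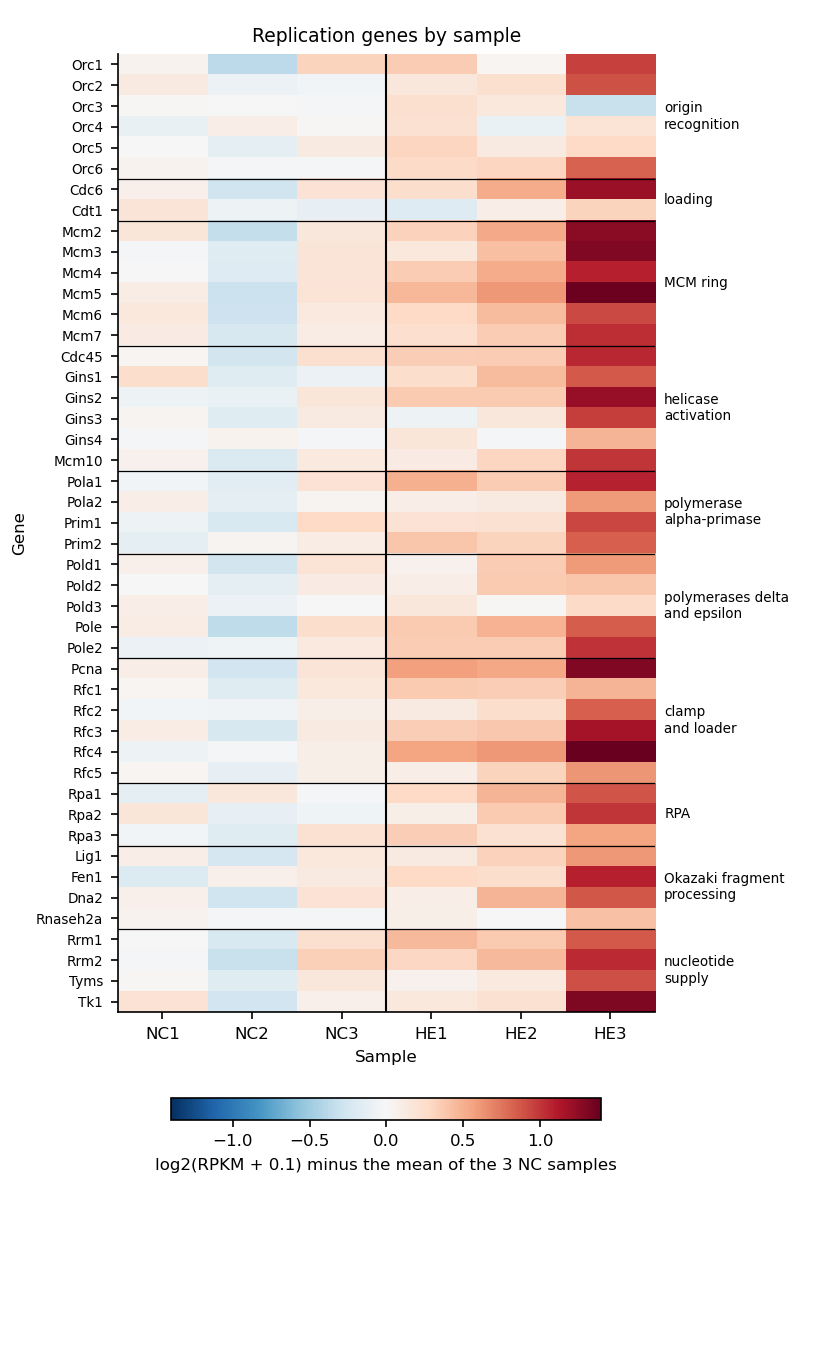
Level of each of the 46 replication genes (rows, by role) in each sample (columns), as log2(RPKM + 0.1) minus the mean of the 3 NC samples; red is above and blue below that mean. The HE3 column is the darkest red, HE1 and HE2 are paler, and Orc3 is the one gene below the NC mean in HE3.

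In 26 members every HE value was above every NC value, compared with 14.8% of all tested genes. The other 20 members overlapped, and 0 members had every HE value below every NC value, compared with 17.9% of all genes. HE1 and HE2 alone were above all 3 NC samples in 27 members, compared with 20.6% of all genes. Without HE3, 45 of the 46 were still higher in HE, compared with 50.0% of all genes, and Cdt1 was the exception at a log2 fold change of -0.04. The median was then 0.28, compared with 0.00 for all genes. The number of members with an unadjusted p under 0.05 was 14 without HE3 (9.35% of all genes were higher at that level), 10 without NC1 (4.39%) and 5 without NC2 (4.78%). In bulk RNA, more cells in S phase and more of these mRNAs per cell cannot be told apart.

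**Figure D2:**
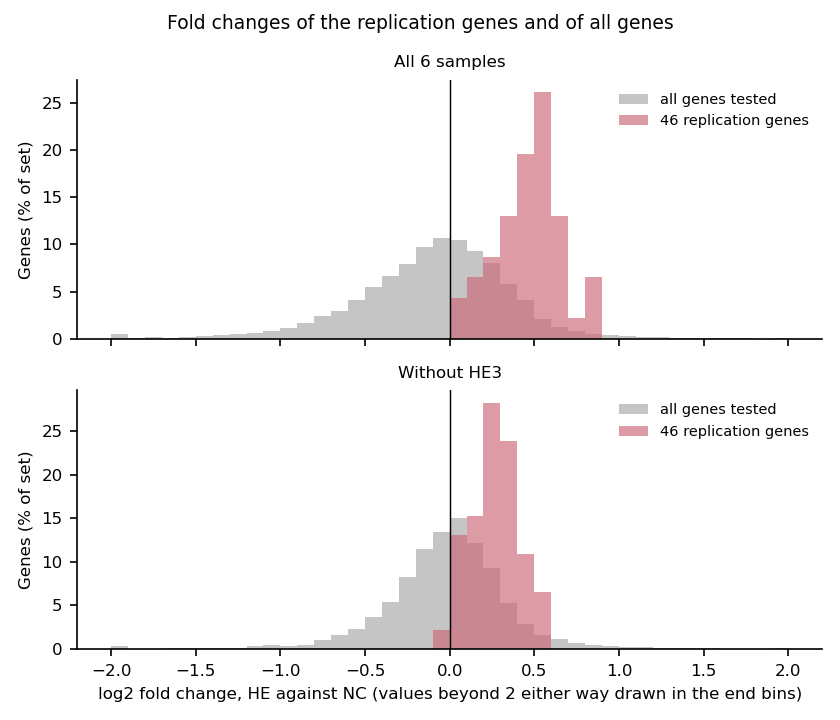
Share of genes (percent of each set) by log2 fold change of HE against NC in bins of 0.1, for all 13952 genes tested (grey) and the 46 replication genes (red), with all 6 samples (top) and without HE3 (bottom). All 46 lie right of 0 at the top, and 45 do at the bottom, where their median is 0.28.

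Across the roles, the MCM ring had the highest median log2 fold change at 0.64, followed by nucleotide supply at 0.56 and the clamp with its loader at 0.51. Helicase activation stood at 0.49, polymerase alpha-primase and replication protein A at 0.48 each, and Okazaki fragment processing at 0.41. The loading factors at 0.37, polymerases delta and epsilon at 0.34 and origin recognition at 0.33 were the lowest. The loading role holds only 2 genes, which were unlike, with Cdc6 at 0.66 and Cdt1 at 0.08, so its median describes neither. The differences between roles were not tested, and the ranges of most roles overlap. The MCM ring, at 0.54 to 0.82, and origin recognition, at 0.02 to 0.46, were a pair whose members did not. Without HE3 the MCM ring still had the highest median, at 0.39, and the clamp with its loader came next at 0.36. Nucleotide supply was then at 0.28, level with helicase activation, polymerase alpha-primase and replication protein A, and the loading factors were the lowest at 0.17.

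**Figure D3:**
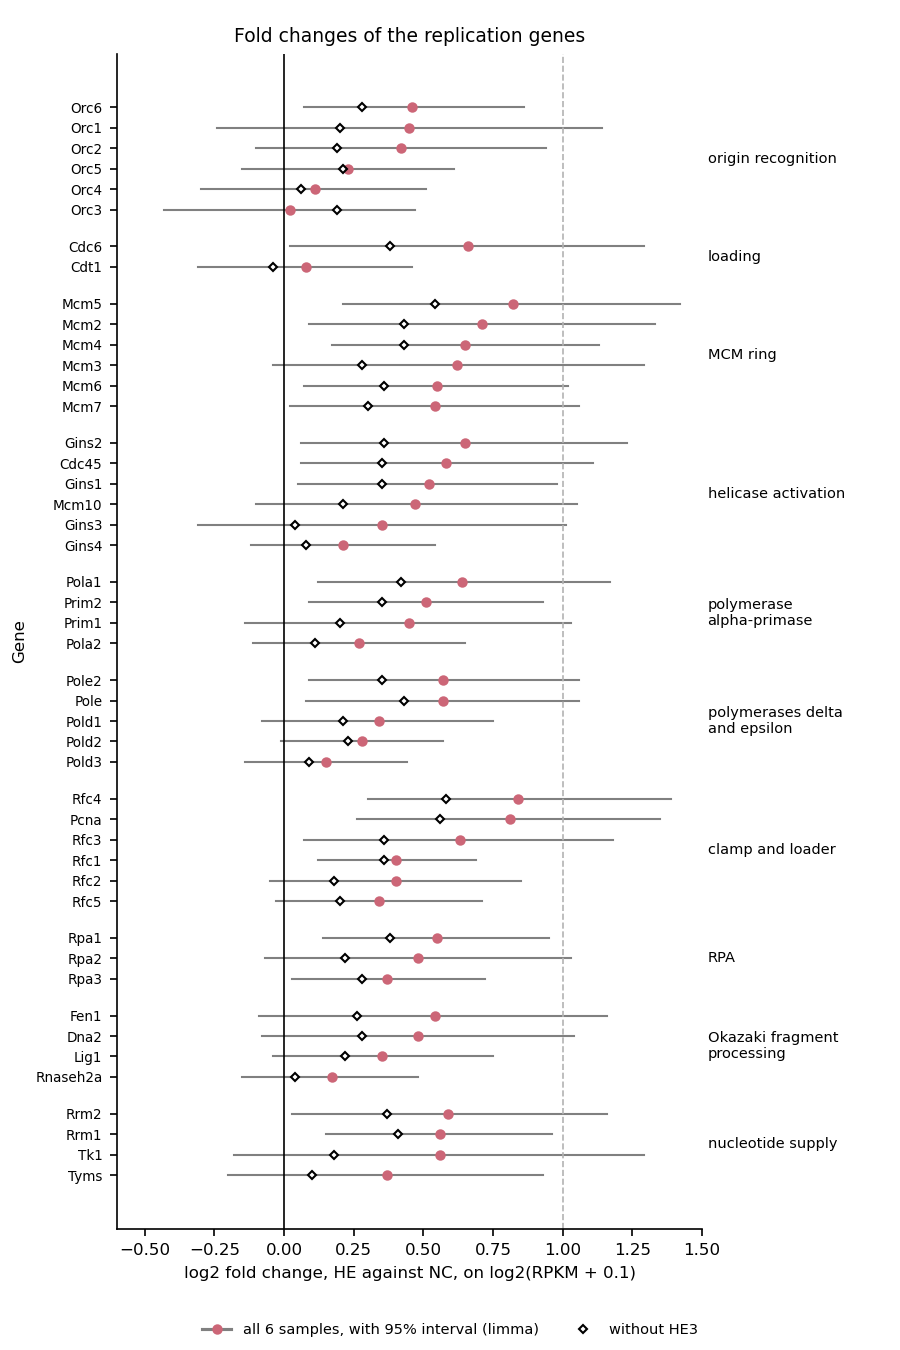
Log2 fold change of HE against NC for each of the 46 genes, grouped by role, from limma on log2(RPKM + 0.1): red points use all 6 samples with their 95% interval (grey lines), and open diamonds leave out HE3. The dashed line marks a log2 fold change of 1, which no point reaches. Every diamond but that of Orc3 (0.19 compared with 0.02) lies left of its red point.

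The origin recognition complex marks the sites where MCM rings are loaded. Orc6, the subunit least related to the others, was at 14.9, 14.1 and 14.1 RPKM in NC and 17.3, 17.7 and 25.6 RPKM in HE. All 3 HE samples were above the controls, and HE1 and HE2 lay close together. Its log2 fold change was 0.46 ± 0.17 (SE), with an adjusted p of 0.211, and 0.28 without HE3. Orc6 was also by far the most abundant subunit, with an NC mean of 14.4 RPKM compared with 1.35 to 3.22 RPKM for Orc1 to Orc5. Orc1, the subunit that is degraded after licensing in many cells, was at 1.01 to 1.67 RPKM in NC and 1.36 to 2.68 RPKM in HE, and the groups overlapped. In Orc2 and Orc5 the groups did not overlap, and in Orc4 they did. The log2 fold changes of Orc1, Orc2, Orc4 and Orc5 were 0.45, 0.42, 0.11 and 0.23, with unadjusted p-values of 0.0966 to 0.562.

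Orc3 behaved differently from most members. It was at 2.00, 1.98 and 1.96 RPKM in NC, at 2.33 and 2.20 RPKM in HE1 and HE2, and at 1.58 RPKM in HE3. HE3 was thus the lowest of all samples for this gene and the highest for most others. The log2 fold change was 0.02 ± 0.19 (SE, adjusted p = 0.947), 0.19 without HE3, and below 0 without HE1 (-0.08) or without HE2 (-0.04).

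Cdc6 is the ATPase that joins the origin complex to load MCM rings. It was at 2.96, 2.30 and 3.23 RPKM in NC and 3.34, 4.05 and 6.60 RPKM in HE. The HE samples were all higher, HE1 by little. The log2 fold change was 0.66 ± 0.27 (SE, adjusted p = 0.237) and 0.38 without HE3. Its partner Cdt1, which delivers the MCM ring and is destroyed in S phase, was at 9.83, 8.26 and 7.98 RPKM in NC and 7.63, 9.27 and 10.8 RPKM in HE. HE1 was the lowest of the 6 samples and NC1 was above HE2, so the groups overlapped. The log2 fold change of 0.08 ± 0.16 (SE, adjusted p = 0.791) has a 95% interval of -0.31 to 0.46.

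Mcm2 to Mcm7 form the hexameric ring of the replicative helicase. Mcm4 (chr16:15623897-15637400 on GRCm38.p6), which had the smallest p of the ring, was at 19.8, 17.5 and 22.5 RPKM in NC and 25.4, 28.4 and 42.3 RPKM in HE. Mcm5, the subunit with the highest mean over the 6 samples, although Mcm7 was higher in every NC sample, was at 40.0, 30.0 and 42.5 RPKM in NC and 51.4, 56.4 and 96.5 RPKM in HE. In both genes all HE samples were above all NC samples, and HE3 had the highest value. Log2 fold changes were 0.65 ± 0.20 (SE) for Mcm4 and 0.82 ± 0.26 (SE) for Mcm5, with an adjusted p of 0.195 each, and 0.43 and 0.54 without HE3. The groups also did not overlap in Mcm2 (0.71), Mcm6 (0.55) and Mcm7 (0.54). Mcm3 overlapped, since its 41.3 RPKM in HE1 lay below the 42.4 RPKM of NC3, with a log2 fold change of 0.62. Within each sample the most abundant of the 6 subunits exceeded the least by 2.11-fold to 2.38-fold in RPKM, but which subunits these were differed. Mcm7 was the highest in NC1 at 43.0 RPKM and Mcm5 in HE3 at 96.5 RPKM, and Mcm6 was above Mcm2 in NC1 (24.2 and 20.3 RPKM) and below it in HE3 (41.4 and 43.5 RPKM). Mcm7 overlaps Ap4m1 and holds the microRNA genes Mir106b, Mir93 and Mir25 in its span on the RefSeq map, and strand use in counting is not given, so its reads may not all be its own.

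Promoter sequences were available for 39 of the 46 genes, as 300-base windows of RefSeq on GRCm38.p6 from 250 bases before to 50 after a start. The E2F letters TTTCCCGC, TTTGGCGC, TTTCGCGC or TTTGCCGC, on either strand, were in the windows of 15 of the 39 (38.5%), and of 2.60% of the 27025 mouse genes with a window. They were in Mcm3, Mcm5, Mcm6 and Mcm7 and not in Mcm2, and Mcm4 had no window. CCAAT, the site of the NF-Y factor, was in 61.5% of members and 41.1% of all genes, and TTTGAA, the core of a cell cycle element of later genes, in 12.8% and 20.2%. These elements may overlap one another, and a match is no proof of binding. Mcm5 and Mcm6 are shown because both hold the same 12 bases, in which 2 E2F matches overlap by 4 bases: TTTCGCGCCAAA in Mcm5, and its reverse complement TTTGGCGCGAAA in Mcm6. The pair was chosen after the matches were seen, and 4 of the 27025 genes hold these letters in a window. The stretches end at the last base before the start, read 5′ to 3′ on the strand of the gene, with E2F and CCAAT letters of either strand in capitals. They lie at chr8:75109341-75109508 (plus strand) for Mcm5 and chr1:128359706-128359830 (minus strand) for Mcm6.
Mcm5: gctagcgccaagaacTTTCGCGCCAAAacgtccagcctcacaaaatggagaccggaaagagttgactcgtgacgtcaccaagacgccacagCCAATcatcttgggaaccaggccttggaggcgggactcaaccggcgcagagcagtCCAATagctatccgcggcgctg
Mcm6: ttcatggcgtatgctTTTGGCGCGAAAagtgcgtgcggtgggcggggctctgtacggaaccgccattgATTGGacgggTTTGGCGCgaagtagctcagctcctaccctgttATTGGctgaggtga

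The overlapping E2F pair begins 153 bases before the start in Mcm5 (-153) and 110 bases before it in Mcm6 (-110), and Mcm6 holds a further E2F match at -47. Of the genes with the smallest p in their role, Cdc6, Lig1 and Pole2 also hold E2F letters. They are shown as 30-base sites with the match in capitals, at chr11:98908002-98908031 (plus strand) for Cdc6, chr7:13278841-13278870 (plus strand) for 1 of the 3 windows of Lig1, and chr12:69228162-69228191 (minus strand) for Pole2.
Cdc6: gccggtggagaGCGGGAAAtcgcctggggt
Lig1: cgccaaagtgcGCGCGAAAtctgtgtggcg
Pole2: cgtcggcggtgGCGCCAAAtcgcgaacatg

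The match lies before the start in Cdc6 (-138) and after it in Lig1 (27) and Pole2 (11). Members with and without the E2F letters had median log2 fold changes of 0.54 and 0.46. Rfc4, Pcna and Rrm1, among the members with the smallest p-values, had a window without these letters.

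Helicase activation joins Cdc45 and the 4 GINS subunits to the MCM ring, with Mcm10 acting at the step. Cdc45 was at 15.3, 12.5 and 17.5 RPKM in NC and 19, 19.2 and 31.1 RPKM in HE, and all HE samples were above all controls. Gins1 was at 6.57, 4.89 and 5.19 RPKM in NC and 6.56, 7.54 and 10.1 RPKM in HE, where HE1 and NC1 were level. The log2 fold changes were 0.58 ± 0.22 (SE) and 0.52 ± 0.20 (SE), with an adjusted p of 0.221 each and 0.35 each without HE3. Gins4, the most abundant of these genes, was at 20.0, 21.1 and 20.1 RPKM in NC and 23.0, 20.1 and 28.5 RPKM in HE. HE2 stood among the controls, and the log2 fold change was 0.21 ± 0.14 (SE, adjusted p = 0.392). The subunits of GINS, which act as 1 complex, were thus unequal, from 0.21 for Gins4 and 0.35 for Gins3 to 0.65 for Gins2, and the intervals of Gins4 (-0.12 to 0.54) and Gins2 (0.06 to 1.23) overlapped. Mcm10 had a log2 fold change of 0.47 with overlapping groups.

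Polymerase alpha-primase starts each new strand. Prim2, the large primase subunit, was at 3.85, 4.36 and 4.58 RPKM in NC and 5.61, 5.29 and 7.65 RPKM in HE, with no overlap. Its log2 fold change was 0.51 ± 0.18 (SE, adjusted p = 0.206) and 0.35 without HE3. Pola2, the regulatory subunit and the most abundant, was at 13.1, 11.2 and 12.6 RPKM in NC and 13.1, 13.4 and 18.6 RPKM in HE. HE1 and HE2 exceeded NC1 by too little to set them apart, and the log2 fold change was 0.27 ± 0.16 (SE, adjusted p = 0.348). The catalytic subunits Pola1 and Prim1 had log2 fold changes of 0.64 and 0.45, without overlap for Pola1 and with overlap for Prim1.

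Polymerases epsilon and delta extend the leading and lagging strands. Pole2, a subunit of polymerase epsilon, was at 4.31, 4.38 and 5.04 RPKM in NC and 5.87, 5.85 and 9.32 RPKM in HE. Pold2, a subunit of polymerase delta, was at 44.4, 40.4 and 47.7 RPKM in NC and 47.0, 56.9 and 57.5 RPKM in HE. The groups stood apart in Pole2, whereas in Pold2 HE1 lay just below NC3. Log2 fold changes were 0.57 ± 0.21 (SE, adjusted p = 0.214) for Pole2 and 0.28 ± 0.12 (SE, adjusted p = 0.252) for Pold2. The catalytic subunit Pole had 0.57 with no overlap, while Pold1, the catalytic subunit of polymerase delta, had 0.34 and Pold3 had 0.15, both with overlap.

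The clamp and its loader held the 2 members with the smallest p, and all 6 of its genes had every HE value above every NC value. Pcna (chr2:132249286-132253180), the ring that holds polymerases on DNA, was at 57.9, 45.2 and 61.8 RPKM in NC and 81.0, 79.3 and 134 RPKM in HE. Rfc4 (chr16:23113948-23127730), a subunit of the ATPase that opens the clamp, was at 3.99, 4.16 and 4.47 RPKM in NC and 6.19, 6.46 and 11.1 RPKM in HE. In both, HE1 and HE2 were close to each other and well above the controls. Pcna was 1.75-fold higher (log2 fold change 0.81 ± 0.23, SE) and Rfc4 1.79-fold higher (0.84 ± 0.23, SE), with an adjusted p of 0.195 each. Without HE3 the log2 fold changes were 0.56 and 0.58, with unadjusted p-values of 0.00702 and 0.00172. In Rfc1, the large subunit, HE3 stood out less. It was at 14.4, 12.5 and 15.6 RPKM in NC and 18.2, 18 and 19.7 RPKM in HE, and its log2 fold change was 0.40 with all samples and 0.36 without HE3. Rfc3, Rfc2 and Rfc5 had log2 fold changes of 0.63, 0.40 and 0.34. Rfc4 overlaps Eif4a2 on the RefSeq map, and Pcna has the copies Pcna-ps1 and Pcna-ps2, with which reads could be shared. In all, the spans of 20 of the 46 members overlap another gene on that map, among them Orc3, Cdc45, Pole2 and Rpa1. The reads of these members may likewise not all be their own.

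**Figure D4:**
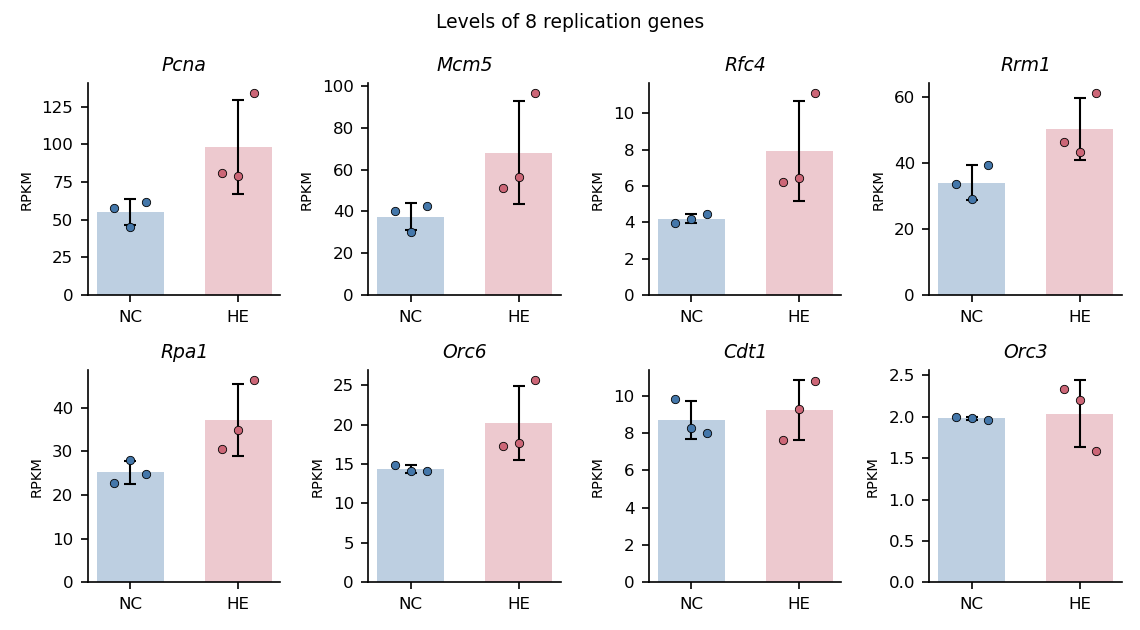
Levels in RPKM of 8 replication genes in the NC (blue) and HE (red) samples; bars are means of 3 samples, error bars are SD and points are samples, drawn from replicate 1 on the left to replicate 3 on the right. In Pcna, Mcm5, Rfc4, Rrm1, Rpa1 and Orc6 all HE points lie above all NC points, while Cdt1 and Orc3 overlap and the HE3 point of Orc3 is the lowest.

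Replication protein A coats single-stranded DNA at the fork. Rpa1 (chr11:75300259-75348454), the large subunit, was at 22.8, 28.0 and 24.8 RPKM in NC and 30.5, 34.9 and 46.3 RPKM in HE. NC2, the lowest sample for most members, was the highest control here, and the HE samples were all above it. The log2 fold change was 0.55 ± 0.17 (SE, adjusted p = 0.195) and 0.38 without HE3. Rpa2 and Rpa3 had log2 fold changes of 0.48 with overlap and 0.37 without.

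Okazaki fragments are trimmed by Fen1 and Dna2, cleared of RNA by RNase H2 and sealed by DNA ligase 1. Lig1 was at 12.4, 9.84 and 12.9 RPKM in NC and 12.7, 14.6 and 17.8 RPKM in HE. HE1 lay between NC1 and NC3, and the log2 fold change was 0.35 ± 0.17 (SE, adjusted p = 0.272). No gene of this role had an unadjusted p under 0.05. Fen1 (0.54) was the one without overlap, and it was the lowest gene of the role, at 1.21 to 1.53 RPKM in NC and 1.67 to 3.08 RPKM in HE. Its span overlaps Tmem258, and whether its reads were counted in full was not tested. Dna2 had a log2 fold change of 0.48 and Rnaseh2a, the catalytic subunit of RNase H2, of 0.17, both with overlap.

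Ribonucleotide reductase makes deoxynucleotides, and thymidylate synthase (Tyms) and thymidine kinase (Tk1) supply thymidine phosphate. Rrm1 (chr7:102441695-102469771), the large subunit of the reductase, was at 33.6, 29.1 and 39.5 RPKM in NC and 46.4, 43.5 and 61.2 RPKM in HE. The groups did not overlap, and the log2 fold change was 0.56 ± 0.17 (SE, adjusted p = 0.195) and 0.41 without HE3. Rrm2, the small subunit, had 0.59 with an overlap between HE1 at 34.2 RPKM and NC3 at 35.4 RPKM. Tk1 was at 9.09 to 12.6 RPKM in NC and at 12.2 and 12.7 RPKM in HE1 and HE2, but at 27.2 RPKM in HE3. Its log2 fold change of 0.56 therefore rested on HE3, and was 0.18 without it. Tyms went from 0.37 to 0.10 when HE3 was left out. Tyms has a pseudogene copy, Tyms-ps, and Tk1 overlaps Afmid on the RefSeq map.

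A list of 48 other replication genes, holding the kinase and regulators of firing, fork protection and checkpoint factors, histone chaperones, further nucleotide enzymes and the E2F and Rb families, was also examined. Of the 48, 42 were higher (43.8% of all genes) and 6 lower in HE, with a median of 0.35, or 0.22 leaving out HE3, on the log2 scale. No gene of the list passed an adjusted p of 0.05 with limma without sample weights. An unadjusted p under 0.05 was reached by 14, all higher in HE (8.68% of all genes). This number was 6 without NC1 (4.39% of all genes) and 4 without NC2 (4.78%). In 21 of the 48, every HE value was above every NC value (14.8% of all genes). Tipin, which protects stalled forks, was at 15.3, 13.9 and 16.8 RPKM in NC and 20.7, 21.0 and 23.9 RPKM in HE. Nasp, a histone chaperone, was at 12.3, 11.3 and 12.7 RPKM in NC and 16, 16.6 and 21.7 RPKM in HE. Both stood clear of the controls in every HE sample, with log2 fold changes of 0.51 ± 0.12 and 0.57 ± 0.14 (SE) and an adjusted p of 0.195 each. With sample weights in limma both passed an adjusted p of 0.05 (0.0366 each), where 2.58% of all genes were higher at that level. In the other direction, E2f1, an activating E2F factor, was at 10.2, 9.74 and 10.1 RPKM in NC and 7.61, 9.81 and 7.04 RPKM in HE. Rb1, which restrains E2F factors, was at 2.47, 2.59 and 2.31 RPKM in NC and 2.49, 2.49 and 1.26 RPKM in HE. In E2f1 HE2 lay among the controls, and in Rb1 HE3 alone was low. Log2 fold changes were -0.31 ± 0.15 (SE, adjusted p = 0.272) for E2f1 and -0.29 ± 0.27 (SE, adjusted p = 0.533) for Rb1.

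Other lists moved between the same samples. All 14 genes of a mitosis list, which holds Mki67 and other genes of dividing cells, were higher in HE, compared with 43.8% of all genes. An unadjusted limma p under 0.05 was reached by 11 (8.68% of all genes were higher at that level). Every HE value was above every NC value in 11 (14.8% of all genes). The median log2 fold change of the 14 was 0.52, or 0.39 when HE3 was left out. Their summed levels were 296 to 383 RPKM in NC and 400 to 565 RPKM in HE. Of the 12 progenitor markers, 10 were lower, compared with 56.2% of all genes, and 2 higher. Their median was -0.33, or -0.21 leaving out HE3, and in 4 of them every HE value was below every NC value (17.9% of all genes). These 4 were Sox2, Sox1, Msi1 and Prom1, all used as markers of neural stem cells. The summed level of the progenitor list was 3110 to 3750 RPKM in NC and 2990 to 4720 RPKM in HE. Most of this sum was Vim and Fabp7, with NC means of 1770 and 1060 RPKM. Fabp7, 1 of the 2 higher markers, reached 2380 RPKM in HE3, so the sum says little about the other markers. Without sample weights, no gene of the mitosis or progenitor lists passed an adjusted p of 0.05 in limma. With sample weights in limma, Ccnb1 (adjusted p = 0.0297), Mki67 (0.0396), Kif11 (0.0474) and Ccna2 (0.0477) passed and were higher in HE. Prom1 passed and was lower (adjusted p = 0.0475). At that level 2.58% of all genes were higher. The difference between the lists was not tested. Of the mesenchyme markers, 5 of 6 were tested and all 5 were higher, with summed levels of 21.7 to 71.1 RPKM in NC and 61.8 to 141 RPKM in HE. Of the microglia markers, 5 of 8 were tested and 4 were higher, with summed levels of 1.06 to 1.47 RPKM in NC and 2.58 to 7.44 RPKM in HE. Of the endothelium markers, 3 of 6 were tested, 2 were higher, and summed levels were 2.47 to 3.42 RPKM in NC and 4.12 to 5.23 RPKM in HE. The summed levels of these 3 lists were low beside those of progenitors, and for microglia and endothelium every HE sum was above every NC sum. These sums include genes too low to test. The rise lay mostly in C1qa, C1qb and Tmem119 for microglia and in Cdh5 for endothelium. P2ry12 and Flt1 were lower, with log2 fold changes of -0.10 and -0.20. Of the markers of neurons, astrocytes and the oligodendrocyte lineage, 3 of 9, 2 of 6 and 2 of 7 were higher (43.8% of all genes). The 3 higher neuron markers were Map2, Elavl4 and Snap25, with log2 fold changes of 0.49, 0.74 and 0.40, and 6 were lower. In these 3 every HE value was above every NC value (14.8% of all genes). The astrocyte markers summed to 1280 to 1560 RPKM in NC and 813 to 1280 RPKM in HE. Most of this sum was Gfap and Aldh1l1, which had lower means in HE, with NC means of 667 and 611 RPKM. S100b went the other way, at 5.42 to 9.3 RPKM in NC and 10.6 to 15.5 RPKM in HE (log2 fold change 0.92). Relative to the NC mean, the median log2 level of the astrocyte markers was -0.05, -0.26 and -0.47 in HE1, HE2 and HE3. For the oligodendrocyte lineage it was 0.07, -0.13 and -0.74. Sox10 and Mbp were at only 1.65 and 1.79 RPKM in HE3, but Olig1 and Olig2 were highest there. No marker of these lists was at 0 in every sample. The part of these cells in the levels of the replication genes was not tested.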

How the data were processed

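RNA-Seq libraries (3 NC, 3 HE) were made from oligo-dT enriched RNA with a strand-specific kit. The sources differ on the sequencer. Per the labels, reads were processed with CASAVA 1.7 and TopHat2 against mm10. The counting tool, annotation and strand setting are not given in the sources used here. The authors deposited raw read counts per gene and, as RPKM, the count divided by gene length and by the sample total, a formula checked to within 4.99e-07. Gene length is a further deposited column in the same table, with other units. Large counts carry comma marks and did not pass a check of count units, so the test was run on RPKM.

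Symbols were found for 21781 of 22048 identifiers. A gene was tested if 3 or more samples had the equivalent of 10 reads in a median library, with 15 reads in all. The test was limma 3.58.1 in R 4.3.3 with a trend on log2(RPKM + 0.1), the group as its term, p adjusted by Benjamini-Hochberg over 13952 genes, and as cutoffs an adjusted p of 0.05 and a log2 fold change of 1. One read on a gene of 1 kb is 0.0523 to 0.0622 RPKM, and depth limits cover counting error only. No pair of replicates agreed within sampling noise.

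The members and gene lists were chosen with earlier results of these data known. Values in every sample are given for the member of each role with the smallest p or the highest mean, for the 2 other replication genes with the smallest p in each direction, and for Orc3, Cdc45 and Rfc1, picked after their values were seen. Other members, including Mcm3, Rrm2, Tk1 and Fen1, are given by single values or ranges chosen in the same way. RefSeq promoters (GRCm38.p6) were searched for motifs, and coordinates are RefSeq spans on that build. Alternatives were a pseudocount of 1, scaling by median of ratios, filters of 1 read in all or of 10 in each sample, a replicate block, voom, sample weights and leaving out each sample.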

Additional observations from a re-analysis of the deposited data

How the results depend on the processing

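All 46 replication genes stayed higher in HE under a pseudocount of 1, median-of-ratios scaling, both other filters, the replicate block, voom and without any NC sample, and 45 did with sample weights or without any HE sample. Their median log2 fold change was 0.28 to 0.63 over the samples left out in turn, 0.30 with sample weights, which gave HE3 a weight of 0.158, 0.42 with a pseudocount of 1 and 0.54 with median-of-ratios scaling. Cdt1 changed sign without HE3 (-0.04) and with sample weights (-0.01), in a range of -0.04 to 0.20 (without HE1) over the samples left out, and Orc3 without HE1 (-0.08) and without HE2 (-0.04), in a range of -0.08 to 0.19 (without HE3). The members with an unadjusted p under 0.05 numbered 22, with a range of 5 (without NC2) to 30 (without HE1), 10 without NC1 and 14 without HE3, and the other replication genes at that level 14, with a range of 4 (without NC2) to 18 (without HE1) and 6 without NC1. With sample weights 268 genes of all passed the fold and p cutoffs, and over the samples left out 0 to 103 did, the latter without NC3; 0 members were among them at a log2 fold change of 1. At an adjusted p of 0.05 with no fold cutoff, sample weights gave 3 members, Rfc4 (0.64, adjusted p = 0.0348), Rpa1 (0.49, adjusted p = 0.0429) and Mcm4 (0.48, adjusted p = 0.0496), where 2.58% of all genes were higher at that level. The causes of these shifts were not tested. With the replicate number as a block, 0 genes were called, 24 members had an unadjusted p under 0.05 and the median was 0.48. Deviations of the log2 levels from the group means correlated at 0.156, 0.0869 and 0.0603 between same-numbered samples. Between NC and HE samples of unlike number they correlated at -0.0764 to -0.00114, so each sample correlated best with its own number. Nothing in the labels says that a number marks a shared litter or day, so the block was kept as an alternative only. There were 3 samples a group, and the members had 55 reads or more in each sample.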
